A study of Mus musculus with 12 samples.

Results

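The classical MHC class I presentation machinery was followed across all 12 libraries through 10 genes: the heavy chain genes H2-K1 and H2-D1, the light chain gene B2m, the transporter and loading genes Tap1, Tap2 and Tapbp, the immunoproteasome genes Psmb8, Psmb9 and Psmb10, and the transcriptional coactivator gene Nlrc5. The members were taken by gene symbol from a table of 40481 genes, with 1 row per gene, and all 10 passed the filter on low values. The cells were mouse haematopoietic stem cells (HSCs), sorted either from E14.5 fetal liver or from the bone marrow of animals aged 8 weeks. They came from WT animals or from iE/R animals, an inducible model of ETV6-RUNX1, the fusion transcription factor of a childhood B cell precursor leukaemia. All 4 groups, WT included, were cultured for 3 days in medium that expands HSCs with doxycycline at 1 µg per mL, and each group had 3 libraries. The comparisons ask how the fusion changes the cells in each source, and whether that change depends on the source. The strain, the sex of the animals, and the promoter that drives the fusion are not given in the sources used here. The labels number the replicates but do not say that they came from separate animals or cultures, so p-values measure only the spread between these samples, which may be technical.

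MHC class I molecules display peptides from inside the cell to CD8 T cells and NK cells. Proteasomes cut proteins into peptides, the TAP1-TAP2 transporter carries them into the endoplasmic reticulum, and tapasin (Tapbp) holds the transporter next to an empty heavy chain paired with beta-2 microglobulin until a peptide fits. Under interferon the catalytic subunits PSMB8, PSMB9 and PSMB10 replace PSMB5, PSMB6 and PSMB7 in newly built proteasomes, and NLRC5, which has no DNA-binding domain of its own, joins RFX, CREB-family and NF-Y proteins on class I promoters to raise the transcription of most of these genes.

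Of the 10 genes, 7 lie on mouse chromosome 17 in the MHC region (GRCm38, GENCODE M21). Tapbp (ENSMUSG00000024308) spans chr17:33915899-33929292 on the plus strand and H2-K1 (ENSMUSG00000061232) spans chr17:33996017-34000347 on the minus strand. A compact block follows, with Psmb9 (ENSMUSG00000096727) at chr17:34181987-34187764 on the minus strand, Tap1 (ENSMUSG00000037321) at chr17:34187553-34197225, Psmb8 (ENSMUSG00000024338) at chr17:34197721-34201454 and Tap2 (ENSMUSG00000024339) at chr17:34203527-34216321, the last 3 on the plus strand. Only 0.495 kb separates Tap1 from Psmb8 and 2.07 kb separates Psmb8 from Tap2. H2-D1 (ENSMUSG00000073411) lies 1046 kb further on at chr17:35262730-35267499 on the plus strand. The other 3 genes lie elsewhere: B2m (ENSMUSG00000060802) at chr2:122147686-122153083 on the plus strand, Nlrc5 (ENSMUSG00000074151) at chr8:94434356-94527272 on the plus strand and Psmb10 (ENSMUSG00000031897) at chr8:105935735-105938444 on the minus strand.

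Promoter windows of 300 bases (250 before to 50 after the gene start, RefSeq, GRCm38.p6) were found for 8 of the 10 members, all but Tap2 and Nlrc5. The upstream stretches of H2-K1 (chr17:34000348-34000547, minus strand) and B2m (chr2:122147487-122147685, plus strand) are shown because the genes whose products pair at the cell surface lie on different chromosomes and both hold an interferon regulatory factor (IRF) core and an NF-kB consensus match side by side. Capitals mark the IRF core, AANNGAAA on either strand, and the match to the NF-kB consensus.
H2-K1: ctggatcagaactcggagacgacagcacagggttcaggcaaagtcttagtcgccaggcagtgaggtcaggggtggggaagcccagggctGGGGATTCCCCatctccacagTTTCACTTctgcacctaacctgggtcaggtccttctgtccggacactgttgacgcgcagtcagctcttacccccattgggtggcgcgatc
B2m: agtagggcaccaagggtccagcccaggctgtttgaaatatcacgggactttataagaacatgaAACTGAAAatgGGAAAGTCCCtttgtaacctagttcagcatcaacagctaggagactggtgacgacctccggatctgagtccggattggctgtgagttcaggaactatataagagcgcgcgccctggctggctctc

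The 30 bases that carry both matches in H2-K1 (chr17:34000429-34000458, minus strand) have a near copy at H2-D1 (chr17:35262923-35262952, plus strand), which lies within an annotated H2-D1 exon. They are shown side by side with the same capitals.
H2-K1, 30 bases: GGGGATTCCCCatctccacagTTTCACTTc
H2-D1, 30 bases: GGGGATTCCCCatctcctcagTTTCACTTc
The copies differ at 1 base, A18T, counted from 1 at the 5′ end with the H2-K1 base first. The NF-kB match begins 111 bases before the H2-K1 start used here, 171 before the H2-D1 start and 126 before the B2m start. A second RefSeq start of H2-K1 puts its match 125 bases before the start.

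H2-K1, H2-D1 and B2m were the 3 of 8 members with an IRF core, against 23.9% of 32851 promoter windows of the same length, and the same 3 held the NF-kB consensus, against 4.51%. B2m alone held the longer interferon-stimulated response element, GAAA with any 2 bases before a second GAAA, which overlaps its IRF core, against 3.44% of windows. Psmb8 alone held the STAT motif TTCNNNGAA, against 8.30%. The CREB-family motif TGACG was present in 5 of 8 members against 20.8% of windows, and CCAAT in 6 of 8 against 37.4%. The Tap1 and Psmb9 windows (chr17:34187306-34187605 and chr17:34187281-34187580) mostly cover the same bases. The same TGACG site and the same CCAAT site therefore count for both genes. All motifs were searched on both strands. Each match is a description of the letters in the window.

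Library totals ran from 32.3 M to 64.5 M reads, so 3 reads correspond to between 0.0465 and 0.0928 CPM (a gene's reads per 1000000 reads of the library), far below the level of any member. All 13 genes of the HSC marker list were present in every group. The list includes Cd48, a usual negative marker in HSC sorting. It was at 179 to 188 CPM in WT fetal liver and 103 to 215 in WT bone marrow. With the fusion it was at 18.7 to 23.8 CPM and 35.2 to 44.5 CPM, so presence of the whole list does not settle what the cells were. Etv6 and Runx1, the genes that make up the fusion, were higher in all ETV6-RUNX1 libraries than in all WT libraries of the same source: Runx1 was at 218 to 244 CPM against 110 to 136 in fetal liver and at 143 to 194 against 86.7 to 105 in bone marrow. WT bone marrow replicate 1 stood apart from its group mates: the chi-square per gene between libraries was 187 to 193 for its pairs and 34.0 to 104 for the other pairs within a group. By Pearson's r of log2 values it did not, at 0.977 to 0.979 for its pairs and 0.974 to 0.991 for the others. Calls, and the overlaps and ratio ranges that it moves, are also given without it. Xist was at 0.175 to 1.27 CPM in bone marrow cells and at 51.7 to 89.3 CPM in fetal liver cells, and the Y-linked gene Ddx3y was at 23.5 to 41.5 CPM in WT fetal liver and 69.1 to 75.2 CPM in ETV6-RUNX1 fetal liver. The part of sex composition in the results was not tested.

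WT fetal liver HSCs had the lowest mean of all 4 groups for 10 of 10 members, and for 9 of them, all but Psmb10, the WT fetal liver libraries did not overlap those of the next group. The 10 genes together took up 0.278 to 0.319% of reads in WT fetal liver, 0.709 to 0.866% in WT bone marrow, 1.16 to 1.58% in ETV6-RUNX1 fetal liver and 1.42 to 1.67% in ETV6-RUNX1 bone marrow. The group means stood in exactly that order for 6 members: H2-K1, H2-D1, B2m, Tap1, Psmb8 and Psmb9. ETV6-RUNX1 fetal liver was the highest group for Tapbp, Psmb10 and Nlrc5. Tap2 broke the pattern, with ETV6-RUNX1 fetal liver at the level of WT bone marrow. Neighbouring groups were often not separated: the WT bone marrow and ETV6-RUNX1 fetal liver libraries overlapped for B2m, Tap2, Psmb8 and Psmb9, and the 2 ETV6-RUNX1 groups overlapped for 7 members, all but H2-K1, Tap2 and Nlrc5. Without WT bone marrow replicate 1, Tap2 was the 1 member for which WT bone marrow and ETV6-RUNX1 fetal liver overlapped. In bulk samples, fewer cells of a type and less RNA per cell cannot be told apart.

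**Figure D1:**
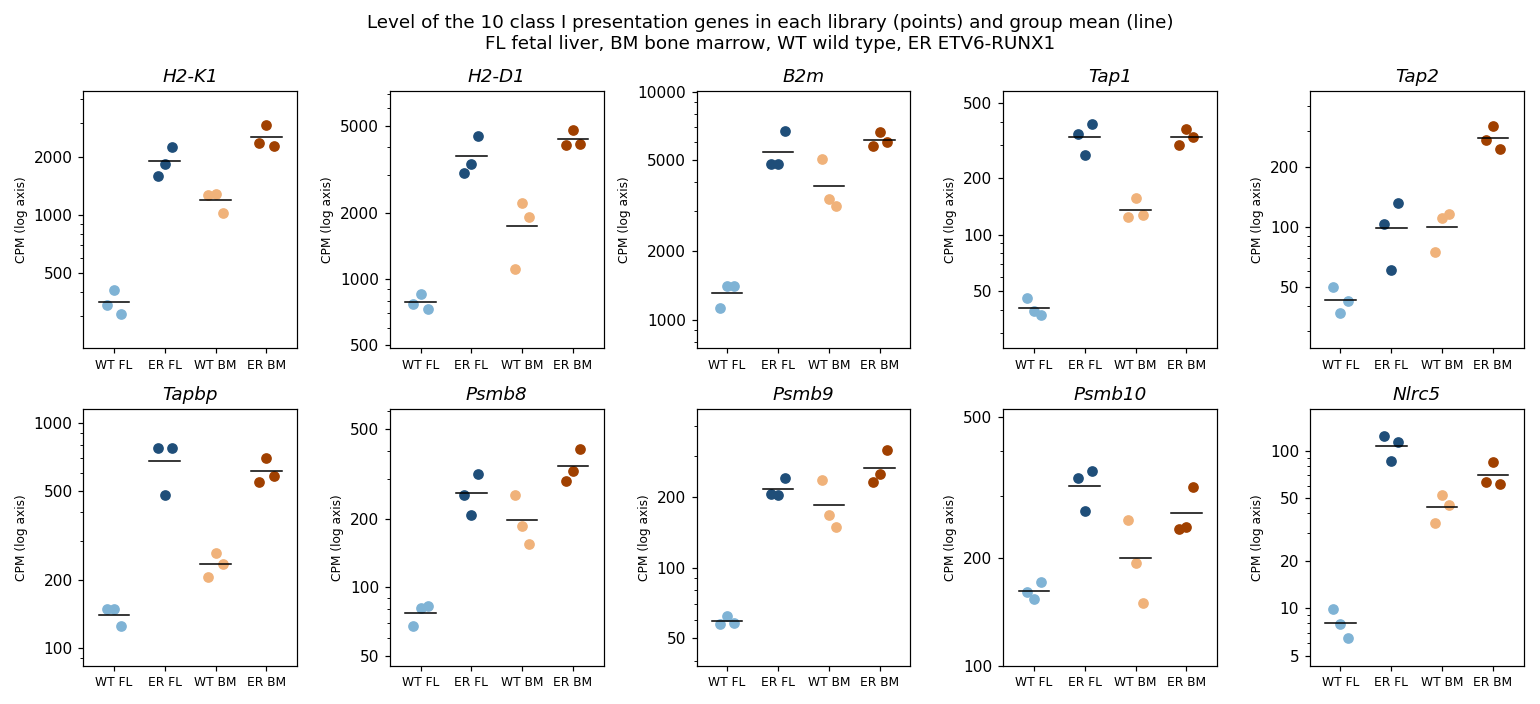
Level of each of the 10 genes in CPM (log axis) in the 12 libraries, with 1 point per library and a line at the group mean. The 3 WT fetal liver libraries lie lowest in 9 of 10 panels without overlap with another group, Tap2 is the panel in which ETV6-RUNX1 fetal liver stays beside WT bone marrow, and Psmb10 spans the narrowest range.

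Levels can be compared between genes only after division by transcript length. On the scale of CPM per kb of the principal transcript, B2m stood above H2-D1 and H2-D1 above H2-K1 in all 4 groups, with B2m at 1519 ± 184 (SD, n = 3) in WT fetal liver and 7178 ± 529 in ETV6-RUNX1 bone marrow. In WT fetal liver B2m already ranked at the 99.5 percentile of 12034 genes, H2-D1 at 98.0 and H2-K1 at 96.4. Nlrc5 was the lowest member in every group and had the widest shift in rank, from the 18.0 percentile in WT fetal liver to 62.0 with the fusion, and from 44.5 in WT bone marrow to 50.9 with the fusion. Tap1 moved from the 64.4 percentile in WT fetal liver to 93.2 in ETV6-RUNX1 fetal liver.

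The heavy and light chains carried most of the reads. H2-K1 encodes one classical heavy chain and was at 344, 409.7 and 307 CPM in WT fetal liver replicates 1 to 3 and at 1598, 1839 and 2258 CPM in ETV6-RUNX1 fetal liver. The WT bone marrow libraries held 1271, 1289 and 1025 CPM, and the ETV6-RUNX1 bone marrow libraries 2376, 2932 and 2292 CPM. No group overlapped another for H2-K1. H2-D1, the other classical heavy chain gene, was at 770.3, 856 and 728 CPM in WT fetal liver, 3045, 3367 and 4471 in ETV6-RUNX1 fetal liver, 1118, 2236 and 1915 in WT bone marrow and 4073, 4803 and 4124 in ETV6-RUNX1 bone marrow. Its low WT bone marrow value is replicate 1. B2m, whose product is shared by all class I heavy chains, was at 1124, 1398 and 1397 CPM in WT fetal liver and 4827, 4827 and 6727 in ETV6-RUNX1 fetal liver. In WT bone marrow B2m was at 5084, 3371 and 3167 CPM and in ETV6-RUNX1 bone marrow at 5793, 6677 and 6050.4. The high WT bone marrow value of B2m is again replicate 1, so that library was low for H2-D1 and high for B2m within its group.

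The transporter genes did not move alike. Tap1 was at 46.1, 39.6 and 37.5 CPM in WT fetal liver and 344, 265 and 387 in ETV6-RUNX1 fetal liver. Its WT bone marrow libraries held 125, 157 and 127 CPM and its ETV6-RUNX1 bone marrow libraries 299, 367 and 331. The ETV6-RUNX1 bone marrow libraries thus lay within the range of the ETV6-RUNX1 fetal liver libraries. Tap2, the other chain of the same transporter, was at 49.7, 37.0 and 42.4 CPM in WT fetal liver, 103, 60.9 and 132 in ETV6-RUNX1 fetal liver, 74.4, 110.4 and 116 in WT bone marrow and 272, 318 and 246 in ETV6-RUNX1 bone marrow. All ETV6-RUNX1 bone marrow libraries lay above all others for Tap2. The ETV6-RUNX1 fetal liver libraries of Tap2 had an SD of 36.2% of their mean, the widest spread of any member in that group. Tapbp was at 149, 148 and 125 CPM in WT fetal liver, 773, 479 and 773 in ETV6-RUNX1 fetal liver, 206, 265 and 237 in WT bone marrow and 546, 702 and 579 in ETV6-RUNX1 bone marrow.

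The 3 immunoproteasome genes encode the inducible catalytic subunits. Psmb8 was at 67.7, 81.0 and 82.8 CPM in WT fetal liver and 256, 209 and 315 in ETV6-RUNX1 fetal liver, and at 255, 187 and 155 in WT bone marrow and 296, 326 and 409 in ETV6-RUNX1 bone marrow. Psmb9 was at 57.3, 62.5 and 58.3 CPM in WT fetal liver, 206, 204 and 241 in ETV6-RUNX1 fetal liver, 237, 168 and 149 in WT bone marrow and 231, 250.3 and 317 in ETV6-RUNX1 bone marrow. WT bone marrow replicate 1 was the highest of its group for both. Psmb10, the member outside the MHC among these subunits, was at 161, 154 and 172 CPM in WT fetal liver, 336, 271 and 351 in ETV6-RUNX1 fetal liver, 256, 195 and 150.0 in WT bone marrow and 241, 245 and 318 in ETV6-RUNX1 bone marrow. Its bone marrow groups overlapped. Nlrc5, the coactivator gene, was at 9.90, 7.95 and 6.45 CPM in WT fetal liver, 123.2, 85.9 and 114 in ETV6-RUNX1 fetal liver, 34.8, 52.3 and 45.2 in WT bone marrow and 63.2, 84.7 and 61.8 in ETV6-RUNX1 bone marrow. No group overlapped another for Nlrc5, and its 4 groups span the widest relative range of the 10 genes.

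In fetal liver the ETV6-RUNX1 cells had more RNA of every member than the WT cells. All 10 rose and none of the groups overlapped (limma on log2(CPM + 1), 2-sided, Benjamini-Hochberg over 14271 genes, adjusted p under 0.05), with group means 1.97 times as high for Psmb10 to 13.3 times as high for Nlrc5. Over all genes tested, 24.8% were called higher in this comparison and 32.3% had ETV6-RUNX1 libraries all above the WT libraries. The median log2 fold change was 2.12 over the members and 0.08 over all genes tested. Nlrc5 rose by 3.58 ± 0.20 (log2 fold change ± SE, limma adjusted p = 1.4e-08) and Tap1 by 2.97 ± 0.16 (limma adjusted p = 8.4e-09). The surface chains followed with H2-K1 at 2.42 ± 0.16, H2-D1 at 2.19 ± 0.22 and B2m at 2.05 ± 0.19, close to Tapbp at 2.23 ± 0.18. The smaller changes were those of Psmb9 at 1.85 ± 0.17, Psmb8 at 1.73 ± 0.19, Tap2 at 1.12 ± 0.24 and Psmb10 at 0.96 ± 0.18 (limma adjusted p = 0.0021 for Tap2 and 0.00071 for Psmb10).

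In bone marrow the direction was the same. Of the 10 members 9 rose, against 14.4% of all genes tested called higher, and Psmb10 did not pass the test (log2 fold change 0.44 ± 0.18, limma adjusted p = 0.10). Group means were 1.34 times as high for Psmb10 to 2.78 times as high for Tap2, and the median log2 fold change was 0.94 over the members and 0.13 over all genes tested. Tap2 had the largest value at 1.48 ± 0.24 (limma adjusted p = 0.0013), then Tapbp at 1.36 ± 0.18, H2-D1 at 1.36 ± 0.22, Tap1 at 1.28 ± 0.16 and H2-K1 at 1.08 ± 0.16. These 5 members passed the test under all 21 alternative settings. Psmb8 at 0.80 ± 0.19, B2m at 0.70 ± 0.19, Nlrc5 at 0.66 ± 0.20 and Psmb9 at 0.54 ± 0.17 each lost the call under some settings, and edgeR's quasi-likelihood test on the recovered reads called 5 members. Without WT bone marrow replicate 3 the count was also 5. The libraries did not overlap for 8 of 10 members, the exceptions being Psmb9 and Psmb10, against 23.6% of all genes tested with ETV6-RUNX1 libraries all above WT. Both exceptions rest on WT bone marrow replicate 1: without it, a setting chosen after seeing the data, 10 of 10 members did not overlap, against 28.4% of all genes tested. Without the same library the count of calls was again 9, with Psmb10 gained at 0.63 (limma adjusted p = 0.021) and Nlrc5 lost at 0.50 (limma adjusted p = 0.117).

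**Figure D2:**
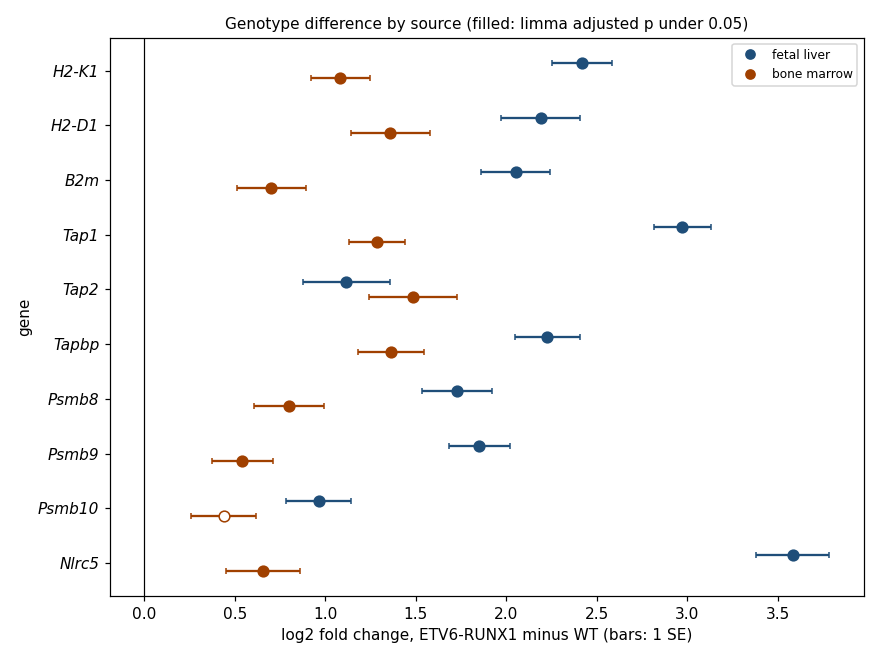
Difference between ETV6-RUNX1 and WT for each of the 10 genes (log2 fold change, limma, bars 1 SE), in fetal liver (blue) and bone marrow (brown). Filled points had an adjusted p under 0.05. The fetal liver point lies to the right for 9 genes, by the widest gap for Nlrc5 (3.58 against 0.66), and Tap2 is the gene whose bone marrow point (1.48) lies to the right of its fetal liver point (1.12).

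The test of the difference itself, the fetal liver log2 fold change minus the bone marrow one, called 7 of 10 members, all in the direction of a larger change in fetal liver, against 5.56% of all genes tested called in that direction. The median over the members was 1.12 and over all genes tested -0.05. Nlrc5 had a difference of 2.92 ± 0.29 (limma adjusted p = 4.2e-05), Tap1 of 1.69 ± 0.22, B2m of 1.35 ± 0.27, H2-K1 of 1.34 ± 0.23 and Psmb9 of 1.31 ± 0.24. Psmb8 at 0.93 ± 0.27 and Tapbp at 0.86 ± 0.26 passed narrowly (limma adjusted p = 0.049 for both) and lost the call under 15 and 13 of 20 alternative settings. H2-D1 at 0.83 ± 0.31 (limma adjusted p = 0.104) and Psmb10 at 0.52 ± 0.25 (limma adjusted p = 0.206) did not pass. Tap2 was the only member with a negative value, -0.37 ± 0.34 (limma adjusted p = 0.526), which does not separate its changes in the 2 sources. Without WT bone marrow replicate 1 the count was again 7, with H2-D1 gained at 1.13 (limma adjusted p = 0.0061) and Psmb8 lost at 0.74 (limma adjusted p = 0.055).

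Between the WT groups, fetal liver cells gave class I genes a smaller share of reads than bone marrow cells. Of the 10 members 9 were lower in fetal liver, against 7.77% of all genes tested called lower, and the same 9 had WT fetal liver libraries all below WT bone marrow libraries, against 18.9% of all genes tested. Nlrc5 differed most, at -2.31 ± 0.20 (limma adjusted p = 5.3e-06), with a bone marrow mean 5.45 times that of fetal liver. H2-K1 was at -1.76 ± 0.16, Tap1 at -1.70 ± 0.16, Psmb9 at -1.59 ± 0.17, B2m at -1.54 ± 0.19, Psmb8 at -1.33 ± 0.19, Tap2 at -1.18 ± 0.24 and H2-D1 at -1.10 ± 0.22. Tapbp had the smallest called difference at -0.74 ± 0.18 (limma adjusted p = 0.015), and Psmb10 did not pass (-0.27 ± 0.18, limma adjusted p = 0.380). Without WT bone marrow replicate 1 the same comparison again called 9 members, with H2-D1 at -1.40 and B2m at -1.33.

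Between the ETV6-RUNX1 groups 8 of 10 members did not pass the test, in a comparison in which 28.6% of all genes tested were called. Tap2 was lower in fetal liver, as were 18.2% of all genes tested, at -1.55 ± 0.24 (limma adjusted p = 0.00030), with a bone marrow mean 2.83 times that of fetal liver. Nlrc5 was higher in fetal liver, as were 10.4% of all genes tested, at 0.62 ± 0.20 (limma adjusted p = 0.035). It lost that call under 6 of 21 alternative settings, including without ETV6-RUNX1 fetal liver replicates 1 and 3 and without ETV6-RUNX1 bone marrow replicates 1 and 3 in turn. Tap1 stood at -0.01 ± 0.16 with group means of 332 CPM in both, and its sign changed under 5 settings. The libraries did not overlap for H2-K1 and Tap2, both lower in fetal liver, and Nlrc5, higher there, against 27.8% and 14.4% of all genes tested. H2-K1 did not pass (-0.42 ± 0.16, limma adjusted p = 0.068) except without ETV6-RUNX1 fetal liver replicate 3 (-0.55, limma adjusted p = 0.030). The comparisons of genotype and of source use the same 12 libraries and are given side by side, not as separate evidence.

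**Figure D3:**
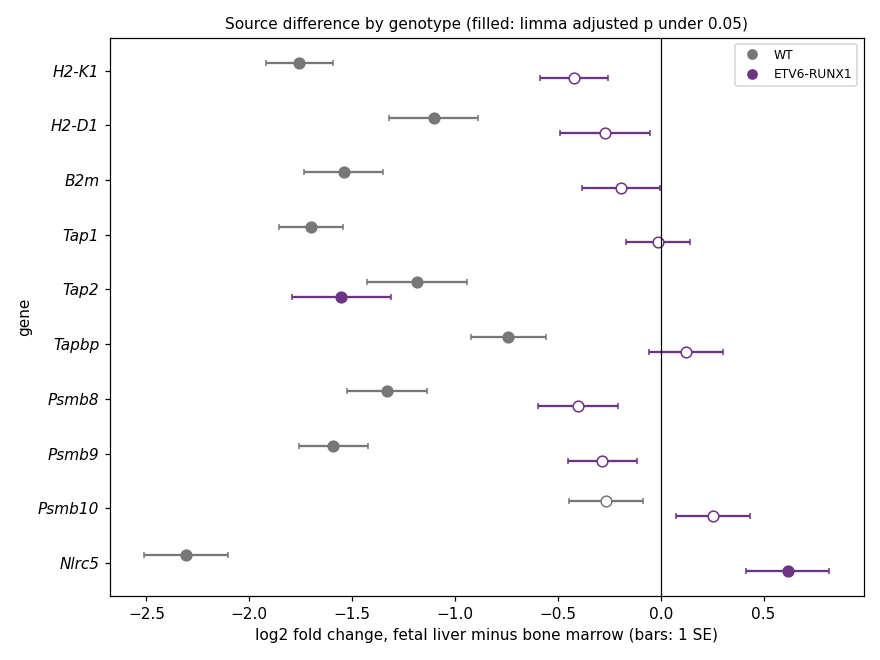
Difference between fetal liver and bone marrow for each of the 10 genes (log2 fold change, limma, bars 1 SE) in WT cells (grey) and ETV6-RUNX1 cells (purple). Filled points had an adjusted p under 0.05. WT points run from -2.31 (Nlrc5) to -0.27 (Psmb10), while 8 ETV6-RUNX1 points are open and Tap2 (-1.55) is the filled one below 0.

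Ratios within a library do not depend on how libraries are scaled. With 3 libraries against 3 the smallest exact permutation p is 0.1, and over the 24 tests run (6 ratios in 4 comparisons) it adjusts to 0.141, so none of them could pass 0.05 and the ratios are given by their ranges. All ratios are of CPM + 1. The ratio of Psmb8 to its constitutive counterpart Psmb5 was 0.469 to 0.510 in WT fetal liver, 1.60 to 2.16 in WT bone marrow cells, 2.15 to 2.93 in ETV6-RUNX1 fetal liver and 2.51 to 3.56 in ETV6-RUNX1 bone marrow. Without replicate 1 the WT bone marrow range of this ratio was 1.60 to 2.01, below both ETV6-RUNX1 ranges. The ratio of Psmb9 to Psmb6 was 0.105 to 0.135, 0.436 to 0.472, 0.571 to 0.685 and 0.758 to 0.845 in the same order of groups. No group overlapped another for this ratio. The ratio of Psmb10 to Psmb7 was 0.767 to 0.853 in WT fetal liver, 1.03 to 1.43 in WT bone marrow, 2.11 to 2.73 in ETV6-RUNX1 fetal liver and 2.16 to 2.31 in ETV6-RUNX1 bone marrow. On this measure the bone marrow genotype groups of Psmb10 did not overlap (exact permutation p = 0.1, adjusted 0.141), although the Psmb10 level itself did.

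The ratio of Tap1 to Tap2 was highest in ETV6-RUNX1 fetal liver, with no overlap with the other groups. It was 2.93 to 4.30 there, against 0.888 to 1.07 in WT fetal liver, 1.09 to 1.67 in WT bone marrow and 1.10 to 1.34 in ETV6-RUNX1 bone marrow. The ratio of H2-K1 to H2-D1 was 0.422 to 0.479 in WT fetal liver, 0.505 to 0.546 in ETV6-RUNX1 fetal liver and 0.556 to 0.611 in ETV6-RUNX1 bone marrow. In WT bone marrow it was 1.14 in replicate 1 and 0.577 and 0.535 in the other libraries. The ratio of B2m to the sum of both heavy chains was 1.01 to 1.35 in WT fetal liver, 0.927 to 1.04 in ETV6-RUNX1 fetal liver, 0.863 to 0.943 in ETV6-RUNX1 bone marrow, and 2.13, 0.956 and 1.08 in WT bone marrow replicates 1 to 3. WT bone marrow replicate 1 was thus the library outside the range of the others on both measures, and without it the log2 ratio of H2-K1 to H2-D1 in bone marrow differed by 0.069 between genotypes, against -0.28 with it.

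**Figure D4:**
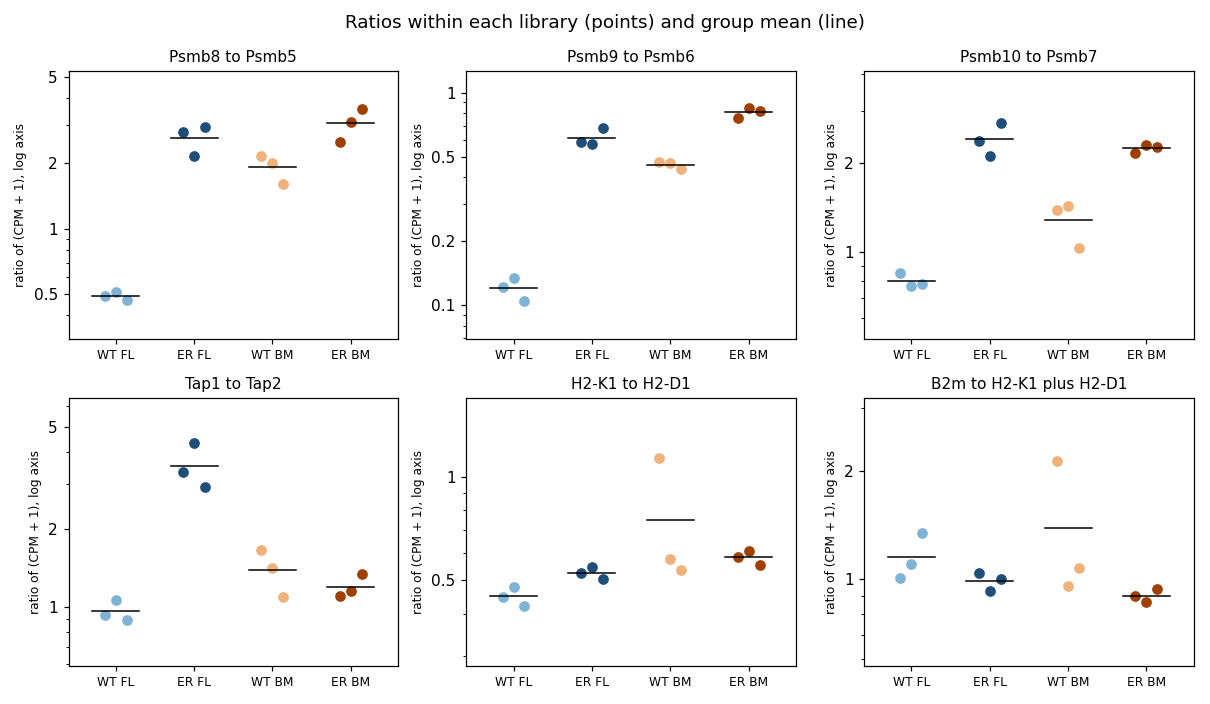
Ratio of CPM + 1 between gene pairs within each library (log axis), 1 point per library with a line at the group mean. The 3 immunosubunit ratios are lowest in WT fetal liver, Tap1 to Tap2 is highest in ETV6-RUNX1 fetal liver (2.93 to 4.30) and lowest in WT fetal liver (0.888 to 1.07), and WT bone marrow replicate 1 stands alone in the 2 heavy and light chain panels (1.14 and 2.13).

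The rest of the 20S proteasome did not rise with the immunosubunits in fetal liver. There the 3 constitutive catalytic genes fell with the fusion, against 18.3% of all genes tested called lower. Psmb5 fell by 0.68 (from 159 to 98.3 CPM), Psmb7 by 0.62 and Psmb6 by 0.50 on the log2 scale. None of the 3 passed the limma test in bone marrow (limma adjusted p from 0.077 for Psmb7 to 0.525 for Psmb5). Of 16 other 20S subunits and assembly factors, 10 were lower and 0 higher in fetal liver, against 18.3% of all genes tested called lower, with a median of -0.42, led by the assembly chaperone genes Psmg2 (-1.21 ± 0.14) and Psmg3 (-0.91 ± 0.19) and the structural subunit gene Psmb3 (-0.87 ± 0.16). In bone marrow 3 were lower and 1 higher, against 4.93% of all genes tested called lower and 14.4% called higher. Of 4 proteasome activator genes 3 rose in fetal liver, where 24.8% of all genes tested were called higher: the PA28 subunits Psme1 (0.82 ± 0.18) and Psme2 (0.56 ± 0.18), and Psme4 (0.60 ± 0.17). None of the 4 passed in bone marrow by limma, with values from 0.06 to 0.39.

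Most partners of peptide loading did not pass the test. Of 12 measured, 3 rose in fetal liver and 1 fell. The share of higher calls was close to the 24.8% over all genes tested, and that of lower calls was below the 18.3%. Tapbpl, a peptide editor related to tapasin, rose by 1.85 ± 0.12, Erap1, which trims peptides in the endoplasmic reticulum, by 1.20 ± 0.25, and Lnpep, an endosomal trimming peptidase, by 0.89 ± 0.24, while Sec61b of the translocation channel fell by 0.67. The chaperone genes Calr, Canx and Pdia3 had log2 fold changes of 0.21, -0.13 and 0.39 (limma adjusted p from 0.194 to 0.648). In bone marrow Tapbpl rose (1.08 ± 0.12 by limma) and the other 11 did not pass, a share below the 14.4% of all genes tested called higher. The 8 listed genes of the RFX, CREB-family and NF-Y proteins that NLRC5 joins on promoters all passed the filter, and Ciita, the related class II coactivator gene in the same list, did not. In fetal liver 2 of the 8 rose, Rfx5 (0.78 ± 0.24) and Rfxank (0.50 ± 0.16), against 24.8% of all genes tested. Nfyb (-0.49 ± 0.13) was the 1 that fell, against 18.3%. In bone marrow Rfx5 alone rose (0.91 ± 0.24), against 14.4%. These counts are near or below the shares over all genes tested. Rfx5 was at 2.92 and 5.83 CPM in WT and ETV6-RUNX1 fetal liver.

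Most regulators upstream of class I genes rose in both sources. Of 15 interferon and NF-kB pathway genes 11 were higher and 0 lower in fetal liver, against 24.8% of all genes tested called higher, and 9 were higher and 0 lower in bone marrow, against 14.4%. Stat2, a transcription factor of the interferon receptors, rose in fetal liver by 4.10 ± 0.24, from 28.3 to 499 CPM. Irf1, a direct activator of class I promoters, rose by 2.52 ± 0.21, Irf9, the partner of STAT2, by 2.31 ± 0.17 and Jak2, a receptor kinase, by 1.18 ± 0.15. In bone marrow Stat2 rose by 2.14, Irf1 by 1.16 and Irf9 by 1.04. The NF-kB subunit genes Rela and Nfkb1 did not pass in either source (log2 fold changes from -0.04 to 0.20). Rel, another NF-kB subunit gene, picked out after its values were seen, rose by 1.60 ± 0.24 in fetal liver (limma adjusted p = 0.00012) and 0.74 ± 0.24 in bone marrow (limma adjusted p = 0.044). The median of the list was 0.98 in fetal liver and 0.74 in bone marrow, against 0.08 and 0.13 over all genes tested.

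Genes that lie between and beside the members on chromosome 17 moved in both directions in fetal liver. Within 400 kb of the Tap1 start, 30 other genes were tested. Of these, 8 were higher and 9 lower with the fusion in fetal liver, against 24.8% and 18.3% of all genes tested, with a median log2 fold change of -0.07. Close to Tapbp, Daxx, a histone chaperone gene, rose by 2.07 ± 0.25 and Rgl2, a gene of a Ras-family exchange factor, by 1.02 ± 0.27, while the prefoldin subunit gene Pfdn6 fell by 0.99, the ribosomal protein gene Rps18 by 0.97 and Wdr46 by 0.85. In bone marrow 10 of the 30 were higher and 0 lower, against 14.4% and 4.93% of all genes tested, with a median of 0.37. H2-Aa, a class II gene, and H2-K2, a neighbour of H2-K1, had the largest values among the 30 in fetal liver (3.06 ± 0.30 and 2.34 ± 0.30) and were picked out after their values were seen.

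**Figure D5:**
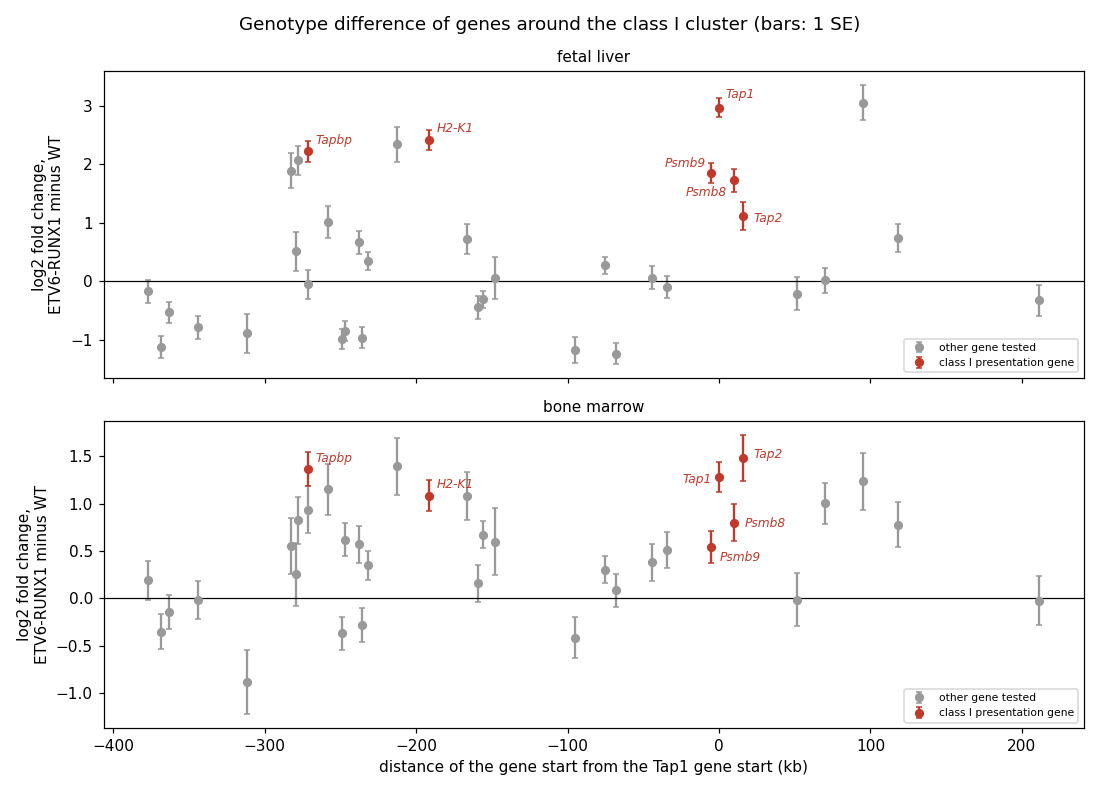
Genotype difference (log2 fold change, limma, bars 1 SE) of 6 members (red) and 30 other genes tested (grey) by distance of the gene start from the Tap1 start, in fetal liver (top) and bone marrow (bottom). In fetal liver the members lie from 1.12 (Tap2) to 2.97 (Tap1) while their neighbours scatter on both sides of 0, and in bone marrow no neighbour was called lower.

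Over the 12 libraries the members' profiles were close to one another. As a description with no test, Pearson's r of log2(CPM + 1) with the mean of the other 9 members ran from 0.936 (Tapbp) to 0.991 (Tap1) for 8 members and was 0.797 for Tap2 and 0.805 for Psmb10. The points share the 4 groups. Outside the list, the named genes with the profile most like the members' mean were Tnip3, an inhibitor of NF-kB signalling (r = 0.993), the serpin gene Serpina3g (0.992), the guanylate-binding protein gene Gbp8 (0.991), the chemokine gene Ccl5 (0.991) and the cytidine deaminase gene Apobec3 (0.989). Apobec3, for example, had means of 255 and 705 CPM in WT and ETV6-RUNX1 fetal liver, and 474 and 709 CPM in WT and ETV6-RUNX1 bone marrow.

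Summed markers of cells that present antigen were higher with the fusion in both sources, without overlap between genotypes. The summed level of 10 macrophage and monocyte markers was 40.4 to 48.0 CPM in WT fetal liver, 115 to 130 in ETV6-RUNX1 fetal liver, 34.9 to 61.3 in WT bone marrow and 88.3 to 111 in ETV6-RUNX1 bone marrow. Most of it was Cd68, and the defining genes C1qa, C1qb, C1qc, Marco and Vsig4 never exceeded 0.495 CPM. The sum of 11 dendritic cell markers was 30.6 to 41.8, 171 to 482, 51.5 to 82.5 and 253 to 404 CPM in the same order. Cd74 alone ran from 4.17 to 446 CPM, with means of 7.29, 309, 42.4 and 266 CPM in that order. It was most of the sum in both ETV6-RUNX1 groups, while Itgax did not exceed 1.62, Xcr1 1.20 and Siglech 0.249 CPM. Of the 4 macrophage and monocyte markers that passed the filter, 4 were called higher and 0 lower in fetal liver. Of the 8 dendritic cell markers that passed it, 6 were higher and 1 lower, against 24.8% and 18.3% of all genes tested. The filter level of 1 CPM was not reached in any WT library by Adgre1, Cd14 or Xcr1, nor in 3 WT libraries by Csf1r or Clec9a. Those genes passed only by way of ETV6-RUNX1 libraries, which fixes part of the higher calls in advance. The counts in either source are therefore no test of the lists. Csf1r, a macrophage growth factor receptor gene, rose in fetal liver from 0.824 to 10.02 CPM (limma adjusted p = 4.4e-06). Clec9a, a dendritic cell receptor gene, rose from 1.30 to 8.15 CPM (limma adjusted p = 0.0006). Flt3, a cytokine receptor gene, was the 1 called lower, from 22.8 to 5.99 CPM (limma adjusted p = 0.0019). The class II gene H2-Ab1 did not pass in fetal liver, at 0.589 CPM in WT and 0.613 CPM with the fusion (limma adjusted p = 0.959). In bone marrow 2 of these 4 and 5 of these 8 were higher and 0 lower, against 14.4% and 4.93% of all genes tested. Csf1r, Clec9a and Flt3 did not pass there by limma. The 9 T and NK cell markers summed to at most 4.35 CPM in any library, with Cd3e, Prf1 and Gzma at 0 in all 12. The B cell sum was 38.5 to 80.8 CPM, mostly Cd79b, with Pax5 at most 0.186. The hepatocyte, endothelial and stromal sum was 88.4 to 113 CPM in WT fetal liver, 155 to 189 in ETV6-RUNX1 fetal liver, 95.8 to 115 in WT bone marrow and 117 to 124 in ETV6-RUNX1 bone marrow, mostly Pecam1, with Alb at most 0.360. Of the 6 genes of this list that passed the filter, 2 rose and 2 fell in fetal liver, against 24.8% and 18.3% of all genes tested. The endothelial genes Pecam1 and Cdh5 rose by 1.01 ± 0.17 and 1.18 ± 0.18, while Pdgfrb (-2.29 ± 0.29) and Apoa1 (-1.16 ± 0.18) fell. The 13 HSC markers also moved: 10 were higher and 1 lower with the fusion in fetal liver, against 24.8% and 18.3% of all genes tested, and 7 were higher and 1 lower in bone marrow, against 14.4% and 4.93%. The lower gene was Cd48 in both, at -3.04 ± 0.21 and -1.98 ± 0.21, whose product is a usual negative marker in HSC sorting. The sum of the list in fetal liver was 2041 to 2450 CPM in WT and 4483 to 4699.6 in ETV6-RUNX1. The part of other cells in the class I result was not tested.

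Reads from overlapping or similar genes could reach some members. Psmb9 and Tap1 share 212 exon bases on opposite strands, and whether the counting used strand is not given in the sources used here. 9330175E14Rik, which lies opposite Nlrc5 and shares 78 exon bases with it, was at 0.778 to 1.57 CPM in WT fetal liver, 13.8 to 15.0 in ETV6-RUNX1 fetal liver, 3.98 to 6.04 in WT bone marrow and 8.42 to 13.2 in ETV6-RUNX1 bone marrow. Zbtb22 shares 149 exon bases with Tapbp on the same strand and was at 6.82 to 21.1 CPM. Opposite-strand exon bases are also shared by Psmb8 and Gm20496 (498), Tap2 and Gm15821 (533), Tap2 and Gm20496 (165), and Tapbp and Gm19412 (904). Stretches of 100 bases in the transcripts were compared in the sense direction only, so overlaps on opposite strands are not in the following shares. Of them, 3.59% for H2-D1 and 0.957% for H2-K1 also occur in other genes, mainly H2-Q and H2-T class I genes. The share was 0.0775% for Tapbp, and none were found for the other 7 members. H2-K1 and H2-D1 levels are therefore uncertain to the extent that shared reads were split or dropped.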

How the data were processed

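The deposited table gives gene-level CPM for 12 libraries, as computed by the authors from total-RNA libraries sequenced as read pairs of 100 bases, per the labels' protocols. The submitters' processing notes name bcl2fastq, STAR 2.5.1a, Subread, featureCounts 1.4.6-p5, Salmon 0.8.2, edgeR and limma and the build GRCm38, with no role or order. How reads were assigned to strands and how the CPM were scaled is not given in the sources used here. The CPM steps gave whole reads for 100% of values (tolerance 0.01), which set the library totals. Of 40757 rows, 276 repeated a gene ID and were used once. The columns carry 12 sample names, each matched to 1 title.

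The main test was limma 3.58.1 (R 4.3.3) on log2(CPM + 1) of the 14271 genes that reached 1 CPM in 3 or more of the 12 libraries, 1 coefficient per group over all 12 libraries, moderated with a mean-variance trend, 2-sided, Benjamini-Hochberg over all genes tested, threshold 0.05. Fold changes understate the change of low genes. Ratios used exact 2-sided permutation tests. The code was tested on simulated data. Alternatives were a pseudocount of 0.1, no filter (29278 genes with reads), a filter on a mean of 5 CPM (10648 genes kept), scaling by median of ratios or quantiles, a replicate block, edgeR 4.0.16 quasi-likelihood and DESeq2 1.42.0 on recovered reads, a fit on just the 6 libraries of a comparison, and each library left out.

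All 10 members are named. In other lists, up to 5 called genes with the smallest p in the fetal liver genotype comparison and up to 3 not called could be named, together with the constitutive subunits. The 5 named gene models (members, Gm and Rik names left out) with the highest r to the members' mean z-score are the similar genes. The members and lists were chosen with earlier results of these data known. Hm13 and Hsd17b8, 2 list genes, were not found under those names. Positions are from GENCODE M21 (99.4% of IDs matched) and promoters from RefSeq GRCm38.p6. Same-numbered samples did not deviate together, so the numbers were not treated as pairs. Depth limits no member, and intervals of counting are not given because the spread between replicates is larger. The levels of some listed genes are not reported here.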

Additional observations from a re-analysis of the deposited data

Results flagged for a closer look

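For 7 of the 10 genes the change with ETV6-RUNX1 differed between fetal liver and bone marrow HSCs by the test of the difference itself (limma, adjusted p under 0.05), and for each of them the change was larger in fetal liver. The difference on the log2 scale was 2.92 for Nlrc5, 1.69 for Tap1, 1.35 for B2m, 1.34 for H2-K1, 1.31 for Psmb9, 0.93 for Psmb8 and 0.86 for Tapbp. Nlrc5 had the largest change in fetal liver and one of the smaller ones in bone marrow, while Tap2, with a difference of -0.37, had no larger change in fetal liver than in bone marrow by its point value. In WT cells 9 of the 10 genes, these 7 together with H2-D1 and Tap2, were lower in fetal liver than in bone marrow. Both comparisons use the WT libraries, so the 2 statements are not independent.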

How the results depend on the processing

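All 10 members kept their fetal liver genotype call under all 21 alternatives (210 of 210 values), and the replicate block, which treats equal numbers as paired, left 10 called there, 7 in bone marrow, 5 for the difference, 9 between WT groups and 1 (Tap2) between ETV6-RUNX1 groups; same-numbered samples correlated at -0.44 to 0.22, which does not pair them. In bone marrow, 177 of 210 values kept their side of the threshold, and 5 members were called by edgeR and 5 without WT bone marrow replicate 3, against 9. With all genes with reads tested, 4 members were called for the difference, against 7, and 1 between ETV6-RUNX1 groups, against 2. Leaving out 1 library in turn left 10 to 10 members called in fetal liver, 5 to 9 in bone marrow, 5 to 7 for the difference, 8 to 9 between WT groups and 1 to 2 between ETV6-RUNX1 groups. The Tap1 difference between ETV6-RUNX1 groups turned to 0.15 with median-of-ratios scaling, 0.16 with edgeR and 0.16 with DESeq2. It turned to 0.14 without ETV6-RUNX1 fetal liver replicate 2 and 0.06 without ETV6-RUNX1 bone marrow replicate 2. The leave-one-out range was -0.13 to 0.14, and the values with median-of-ratios scaling, edgeR and DESeq2 lay above it. Of 168 log2 ratio differences 3 changed sign: Psmb10 to Psmb7 between ETV6-RUNX1 groups to -0.0071 without fetal liver replicate 3 (leave-one-out range up to 0.18), and, without WT bone marrow replicate 1, H2-K1 to H2-D1 between bone marrow groups to 0.069 (range from -0.47) and B2m to the heavy chains between WT groups to 0.17 (range from -0.40). The cause was not tested.

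Over all genes, median-of-ratios scaling moved the median genotype log2 fold change in bone marrow from 0.13 to 0.01, and the higher share of calls from 74.5 to 53.0%. Quantile scaling moved it in fetal liver from 0.08 to -0.10 and the share from 57.6 to 42.0%. Median-of-ratios scaling moved the higher share from 60.6 to 73.8% for the difference, 30.3 to 40.7% between WT groups and 36.3 to 57.7% between ETV6-RUNX1 groups, whose median went from -0.16 to -0.01. No member changed sign in either genotype comparison. EdgeR called 6178 genes in fetal liver, 2739 in bone marrow, 1105 for the difference, 1601 between WT groups and 3244 between ETV6-RUNX1 groups, against 6151, 2763, 1311, 1591 and 4088. Counts over all genes that moved by over 1.5 times were, in bone marrow, 2763 to 1601 with only the 6 libraries and 1520 without ETV6-RUNX1 replicate 2. For the difference, 1311 became 767 with all genes with reads, 2332 without WT bone marrow replicate 1, 731 without its replicate 2, 766 and 737 without WT fetal liver replicates 2 and 3, and 847 without ETV6-RUNX1 fetal liver replicate 1. Between WT groups, 1591 became 904 without fetal liver replicate 3, and 2781 and 868 without bone marrow replicates 1 and 2.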
